A study of Arabidopsis thaliana with 24 samples.

Results

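Expansins and xyloglucan endotransglucosylase/hydrolases (XTHs) were examined in 14 day-old Arabidopsis thaliana seedlings on 24 Affymetrix ATH1 arrays. Their probe sets were those assigned to one gene whose symbol starts with EXPA, EXPB, EXLA, EXLB, XTH or XTR, whatever their signal. The rule found 27 of the 22810 probe sets, 18 for expansins and 9 for XTHs. A further 2 probe sets assigned to several genes, with a symbol of these kinds among them, were left out. Only 13513 probe sets carry a single gene symbol, so only part of both families is covered.

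The plant cell wall is a net of cellulose microfibrils held in a matrix that includes xyloglucan, and a cell grows when turgor stretches this net. Expansins are secreted proteins that loosen the wall in acid conditions without cutting its polymers. The EXPA and EXPB classes hold the known wall-loosening proteins, and the expansin-like classes EXLA and EXLB are related by sequence. XTHs cut xyloglucan chains and rejoin them to other chains, and some members release the cut end as hydrolases. In young seedlings light restrains growth of the hypocotyl and promotes growth of cotyledons and leaves.

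The 8 groups crossed 2 genotypes, nitrogen and light, with 3 arrays in each group. Line bzip1-1 carries a T-DNA insertion in the only exon of the transcription factor gene bZIP1, and WT-sib is a sibling without that insertion, both in the Col-0 background; a single insertion line stands for the mutant. All seedlings grew with 0.5 mM KNO3 and 3 mM sucrose under 16 h light and 8 h dark at 22 °C and 50 µE light, then moved to fresh plates for 2 h at the start of the light period. The +N plates held 20 mM KNO3 and 20 mM NH4NO3, the -N plates held KCl, the -L plates were wrapped in foil and the +L plates stayed in the light. RNA came from whole seedlings, and the methods describe 3 independent experiments.

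Signals are Microarray Suite 5.0 (MAS 5.0) values on a linear scale, and the array medians ran from 182 to 216. The leaf marker RCA read 17824 to 34876 and the root marker PYK10 read 4039 to 14584 over the 24 arrays, so both organs were represented. The other listed leaf, root and root hair markers had no named probe set. The probe set of bZIP1 itself carries no gene symbol in the annotation used and was not identified here. On the -N+L arrays of replicate number 1 both genotypes read against their labels for the probe set with the most negative genotype difference. That probe set has no gene symbol either, and whether it belongs to bZIP1 was not tested. It read 56.5 on the WT-sib array against 519 to 6034 on the other 5 WT-sib light arrays, and 471 on the bzip1-1 array against 68.6 to 123. AT3G56290 read 7861 on that WT-sib array against 1656 to 2687 on the others, and 1806 on that bzip1-1 array against 6747 to 11651. The light calls that rest on this pair are also given without it, which leaves fewer arrays. Were only the genotype labels of the pair exchanged, light changes averaged over genotype would keep their values, though their errors could differ. Terms with genotype, and light changes within each genotype, would then differ. Genotype directions below are those of the labels, and whether the labels were exchanged was not tested.

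Light was the only factor for which any of these members was called after 2 h. It also had most calls over all probe sets, 5660 against 217 for nitrogen and 2 for genotype. Of the 27 members, 8 rose in light and 2 fell. Those that rose were XTH32, XTH16, EXPA15, EXPA4, EXPA20, EXPB3, EXPB1 and EXLA2, and those that fell were EXPA8 and EXPA16. Calls are from limma on log2 signal, with p adjusted by the Benjamini-Hochberg method over all 22746 probe sets tested and a threshold of 0.05. In this comparison 13.2% of all probe sets were called higher and 11.7% lower. The share of members that rose was thus above the background, while a count of 2 that fell is near it. Neither difference was tested. The members' median change was 0.30 on the log2 scale beside 0.00 over all probe sets, with 18 members above 0 and 9 below. By family, 6 of 18 expansins rose and 2 fell, and 2 of 9 XTHs rose and 0 fell, beside the same 13.2% and 11.7% of all probe sets. The XTH counts are small and near these shares, as is the count of 2 expansins that fell. Since whole seedlings were used, fewer cells of a type and less RNA per cell cannot be told apart.

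The members differ in how well they were measured. Of the 27, 15 lay below the 40th percentile of mean log2 signal, which corresponds to a signal of 122.8, and are called dim here. Among the 12 brighter members, 9 expansins and 3 XTHs, 7 were called for light, where 36.6% of all brighter probe sets were. Among the 15 dim members 3 were called, where 7.3% of all dim probe sets were. Without the pair of -N+L arrays of number 1, 5 members rose and 2 fell, where 13.2% of all probe sets were called higher and 11.2% lower, so the share that rose lay closer to the background. In that fit the calls of EXPA4 (adjusted p = 0.0521), EXPB1 (0.0789) and EXPA20 (0.0815) were lost. XTH32 changed by 2.26, EXPA15 by 1.30, EXPB3 by 1.17, EXLA2 by 1.45 and XTH16 by 1.06 on the log2 scale, and EXPA8 by -1.47 and EXPA16 by -0.87, all past the threshold.

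**Figure D1:**
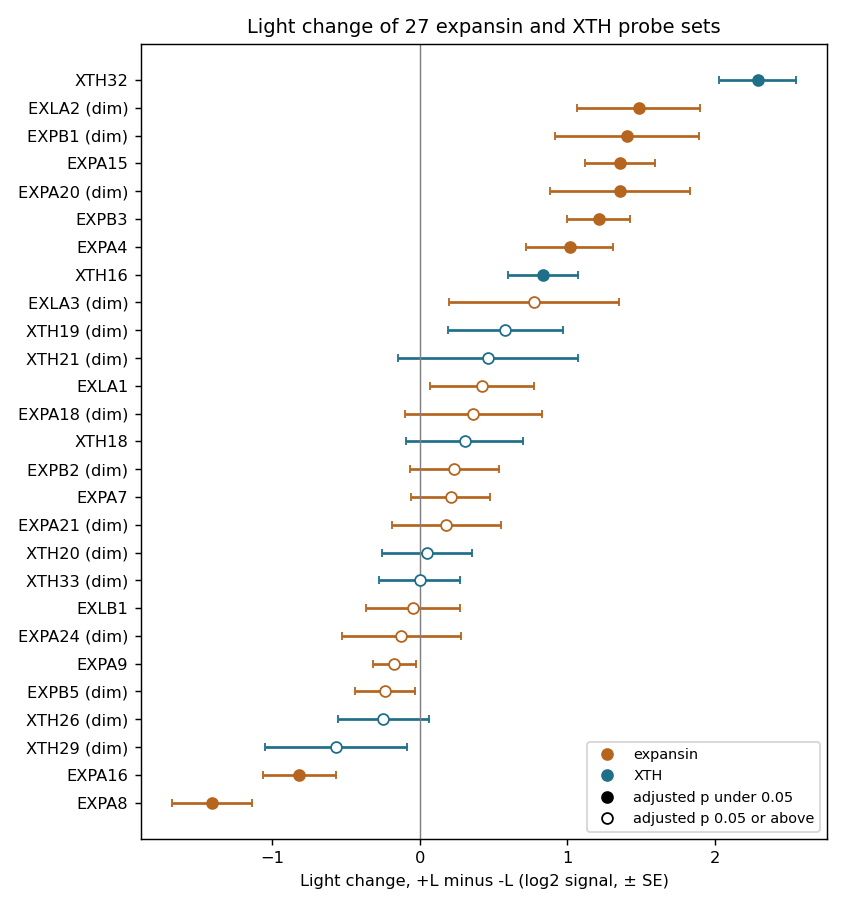
Change between light and dark for each of the 27 probe sets, averaged over nitrogen and genotype, in log2 signal with its standard error; filled points have an adjusted p under 0.05. XTH32 lies farthest right at 2.29 and EXPA8 farthest left at -1.41.

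XTH32 belongs to the small XTH group whose studied members act mainly as xyloglucan hydrolases. The XTH32 probe set read 567, 259.7 and 268 on the WT-sib -N-L arrays and 369, 345 and 150.1 on the bzip1-1 -N-L arrays (replicate numbers 1, 2 and 3, in this order here and below). With nitrogen in the dark XTH32 read 548, 179 and 238 in WT-sib and 319, 351 and 200.5 in bzip1-1. None of these 12 dark arrays exceeded 567. In light without nitrogen XTH32 read 975, 1888 and 1155 in WT-sib and 2551, 2115 and 817 in bzip1-1. In light with nitrogen it read 2509, 2031 and 818 in WT-sib and 1569, 1639 and 752 in bzip1-1. The 12 light arrays all lay above the 12 dark arrays, and XTH32 was the only one of the 27 members without overlap, where 3.59% of all probe sets had none, so a count of 1 is at the background. XTH32 rose 4.90-fold, a log2 change of 2.29 (SE 0.26, adjusted p = 1.03e-06).

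XTH16 was the other XTH that rose. The XTH16 probe set read 299.5, 212 and 438 in WT-sib -N-L and 308, 318 and 309.9 in bzip1-1 -N-L. Dark arrays with nitrogen gave XTH16 signals of 427, 270.0 and 371 in WT-sib and 244, 436 and 289.9 in bzip1-1. The dark arrays thus stayed within 212 to 438. In light, XTH16 read 203, 514 and 1322 in WT-sib -N+L and 537, 658 and 1078 in bzip1-1 -N+L. With nitrogen in light it read 479, 544 and 959 in WT-sib and 309, 427 and 666 in bzip1-1. Light arrays spread more widely than dark ones, the number 3 array was the highest in each of the 4 light groups, and the WT-sib -N+L array of number 1 was the lowest of all 24. XTH16 rose by a log2 step of 0.83 (SE 0.24, adjusted p = 0.0125), and light exceeded dark in 10 of 12 pairs of arrays that share genotype, nitrogen state and number. The adjusted p of XTH16 was 0.000539 once the -N+L arrays of number 1 were dropped.

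EXPA15 was the alpha-expansin with the lowest adjusted p among those that rose. The EXPA15 signals were 423, 253 and 167 in WT-sib -N-L and 319, 215 and 191 in bzip1-1 -N-L. They were 393, 198 and 259.8 in WT-sib +N-L and 321, 249.6 and 190.0 in bzip1-1 +N-L. Dark arrays of number 1 were the highest of their group in all 4 dark groups. In light EXPA15 read 756, 946 and 354 in WT-sib -N+L and 781, 949 and 384 in bzip1-1 -N+L. It read 1077, 909 and 441 in WT-sib +N+L and 805, 828 and 279 in bzip1-1 +N+L. The ranges overlapped where number 3 light arrays, down to 279, met number 1 dark arrays, up to 423, and within each of the 12 pairs light was higher. EXPA15 rose 2.56-fold (log2 change 1.36, SE 0.24, adjusted p = 0.000191).

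EXPA4, an alpha-expansin known from growing pollen tubes, rose by a smaller step. The EXPA4 probe set read 446, 233 and 137 in WT-sib -N-L and 272, 210.2 and 99.0 in bzip1-1 -N-L. With nitrogen in the dark EXPA4 read 518, 171 and 193 in WT-sib and 289.7, 305 and 103 in bzip1-1. The spread within each dark group was wider than the light change. In light EXPA4 read 765, 432 and 287 in WT-sib -N+L and 804, 395 and 276 in bzip1-1 -N+L. In the +N+L groups EXPA4 read 835, 399 and 264 in WT-sib and 683, 355 and 334 in bzip1-1. Light and dark ranges overlapped, yet light was higher in 12 of 12 pairs. EXPA4 rose 2.02-fold (log2 change 1.02, SE 0.29, adjusted p = 0.0135), and the change without the -N+L arrays of number 1 was 0.82, past the threshold no longer.

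EXPB3 was the one beta-expansin that was not dim. The EXPB3 probe set read 435, 275 and 182 in WT-sib -N-L and 297, 202 and 198 in bzip1-1 -N-L. With nitrogen in the dark EXPB3 read 425, 141 and 236 in WT-sib and 305, 226 and 97.6 in bzip1-1. In both dark WT-sib groups the number 1 array stood well above the other 2. In light EXPB3 read 581, 644 and 419.8 in WT-sib -N+L and 722, 661 and 465 in bzip1-1 -N+L. In the +N+L groups EXPB3 read 614, 699 and 354 in WT-sib and 628, 369 and 481 in bzip1-1. Of the 12 pairs all were higher in light. EXPB3 rose 2.32-fold (log2 change 1.21, SE 0.21, adjusted p = 0.00017).

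EXLA2, EXPB1 and EXPA20, all dim, also rose, with wider errors. The EXLA2 probe set, for an expansin-like gene studied in the response to the fungus Botrytis, read 8.96 to 108 in the dark (median 30.2) and 29.4 to 213 in light (median 92.2). The log2 change of EXLA2 was 1.48 (SE 0.42, adjusted p = 0.011), with 11 of 12 pairs higher in light. EXPB1 read 4.12 to 195 in the dark (median 81.8) and 59.4 to 299 in light (median 190.3), a change of 1.41 (SE 0.49, adjusted p = 0.0394). EXPA20 read 4.07 to 122 in the dark (median 60.9) and 55.8 to 142 in light (median 108), a change of 1.36 (SE 0.47, adjusted p = 0.0403). The EXPA20 and EXPB1 changes rest partly on single very low dark arrays. EXPA20 read 4.07 and 5.47 on the +N-L arrays of number 2 in WT-sib and bzip1-1, and its change without that pair was 0.70, still called. EXPB1 lost its call without that pair. EXPB1 read 4.12 on the WT-sib -N-L array of number 3 and was still called without that array. With 1 array left out at a time, EXPA20 lost its call in 16 and EXPB1 in 13 of 24 fits.

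**Figure D2:**
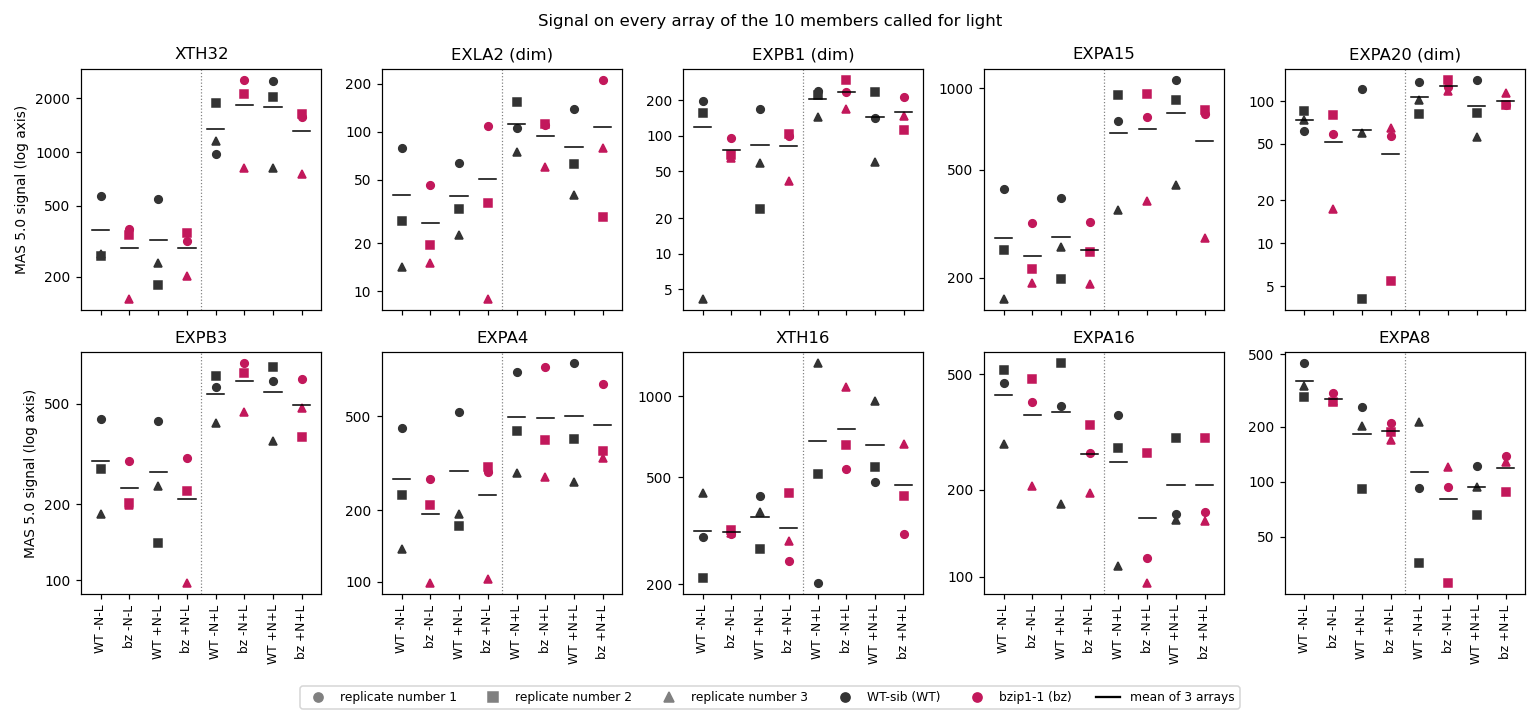
MAS 5.0 signal on a log axis for the 10 members called for light, with the 8 groups on the x axis (dark left of the dotted line, light right of it), WT-sib in grey, bzip1-1 in pink, a marker shape per replicate number and a bar at the mean of 3 arrays. XTH32 light arrays (752 to 2551) all lie above its dark arrays (150.1 to 567), while the other 9 overlap.

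EXPA8 and EXPA16, both alpha-expansins, fell in light. The EXPA8 probe set read 445, 293 and 333 in WT-sib -N-L and 307, 273 and 278 in bzip1-1 -N-L. With nitrogen in the dark EXPA8 read 257, 91.5 and 201 in WT-sib and 209, 188 and 170.0 in bzip1-1. The 6 dark arrays without nitrogen were all higher than the 6 dark arrays with it, a separation seen in no other member and in 0.545% of all probe sets. In light EXPA8 read 92.0, 35.7 and 212 in WT-sib -N+L and 93.1, 27.9 and 120.1 in bzip1-1 -N+L. In the +N+L groups EXPA8 read 123, 65.3 and 94.1 in WT-sib and 138, 87.7 and 129 in bzip1-1. None of the 12 pairs was higher in light, and the number 2 arrays were the lowest in each of the 4 light groups. EXPA8 was 2.66-fold lower in light (log2 change -1.41, SE 0.27, adjusted p = 0.000442).

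EXPA16 fell by less. The EXPA16 probe set read 467, 516 and 287 in WT-sib -N-L and 400.2, 479.6 and 207 in bzip1-1 -N-L. With nitrogen in the dark EXPA16 read 389.7, 545 and 178 in WT-sib and 268, 333 and 194 in bzip1-1. Number 3 arrays were the lowest and number 2 arrays the highest in each of these groups. In light EXPA16 read 361, 278 and 109 in WT-sib -N+L and 117, 268 and 95.5 in bzip1-1 -N+L. In the +N+L groups EXPA16 read 164, 301 and 157 in WT-sib and 167, 300.3 and 156 in bzip1-1. The light and dark ranges overlapped, with light lower in all 12 pairs. EXPA16 was 1.76-fold lower in light (log2 change -0.82, SE 0.25, adjusted p = 0.0177), and without both +N-L arrays of number 2 its adjusted p was 0.0693.

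The other 17 members did not pass the test for light, and their intervals are wide. Root hair expansins EXPA7 and EXPA18 changed by 0.21 (95% interval -0.36 to 0.77) and 0.36 (-0.61 to 1.33) on the log2 scale, and XTH26, also linked to root hairs, gave -0.25 (-0.89 to 0.40). The root XTHs gave 0.30 for XTH18, 0.58 for XTH19, 0.05 for XTH20 and 0.46 for XTH21. None of these root-expressed members passed the test, with standard errors from 0.27 to 0.61. Stress-linked XTH29 gave -0.57 (-1.58 to 0.44) and XTH33, which is anchored in the plasma membrane, gave 0.00 (-0.57 to 0.57). Among the remaining alpha-expansins EXPA9 gave -0.17, EXPA21 0.18 and EXPA24 -0.13. Of the beta-expansins, EXPB2 gave 0.23 and EXPB5, known from pollen tubes, -0.23. The expansin-like EXLA1, EXLA3 and EXLB1 gave 0.42, 0.78 and -0.05. XTH18 and XTH19 are neighbours on the chromosome, EXLA1 and EXLA3 have 1 gene between them, and EXPA21 and EXPA24 have 4. No such pair holds a called member.

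The light response was also read in each nitrogen state, on separate arrays. Without nitrogen 5 members rose (XTH32, EXPA15, EXPB3, EXLA2 and XTH16) and EXPA8 and EXPA16 fell, where 8.47% of all probe sets were called higher and 7.56% lower. With nitrogen 3 rose (XTH32, EXPA15 and EXPB3) and 0 fell, where 6.87% were called higher and 6.42% lower. The members' median light change was 0.51 without nitrogen and 0.03 with it, beside 0.05 and -0.03 over all probe sets. Of the 27 members 21 were above 0 without nitrogen and 14 with it.

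The change of XTH32 was 2.27 without nitrogen and 2.32 with it, that of EXPA15 1.38 and 1.34, and that of EXPB3 1.18 and 1.25. The difference between the states was thus at most 0.07 for these 3 members, with 95% intervals of -1.04 to 1.14 for XTH32, -1.04 to 0.96 for EXPA15 and -0.82 to 0.95 for EXPB3. EXPA8 fell by 2.03 without nitrogen (adjusted p = 0.000679) and gave -0.79 with it (adjusted p = 0.205). EXPA16 fell by 1.07 without nitrogen (adjusted p = 0.0416) and gave -0.57 with it. EXLA2 rose by 1.84 without nitrogen (adjusted p = 0.0359) and gave 1.12 with it, and XTH16 rose by 0.99 (adjusted p = 0.0498) and gave 0.68. Without the pair of -N+L arrays of number 1, 4 members rose without nitrogen (7.81% of all probe sets) and 2 fell (6.88%). EXLA2 then gave 1.78 and lost its call (adjusted p = 0.101), and XTH16 rose by 1.44 (adjusted p = 0.00236). The others stood at 2.21 for XTH32, 1.25 for EXPA15, 1.09 for EXPB3, -2.16 for EXPA8 and -1.16 for EXPA16.

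Whether nitrogen changed the light response was tested by the N*L term, which is the nitrogen response in light minus that in the dark. None of the 27 members passed it, where 0.0396% of all probe sets did. In the fit that takes no account of the replicate number, 1 member had an unadjusted p under 0.05. That member was EXPA8, at 1.24 (SE 0.54, 95% interval 0.12 to 2.36, adjusted p = 1 by limma). The N*L value was below 0 for 18 of 27 members, with a median of -0.31, and below 0 for 56.4% of all probe sets, with a median of -0.05. The lowest were the dim XTH21 at -1.71 (SE 1.22) and EXPA18 at -1.51 (SE 0.93).

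**Figure D3:**
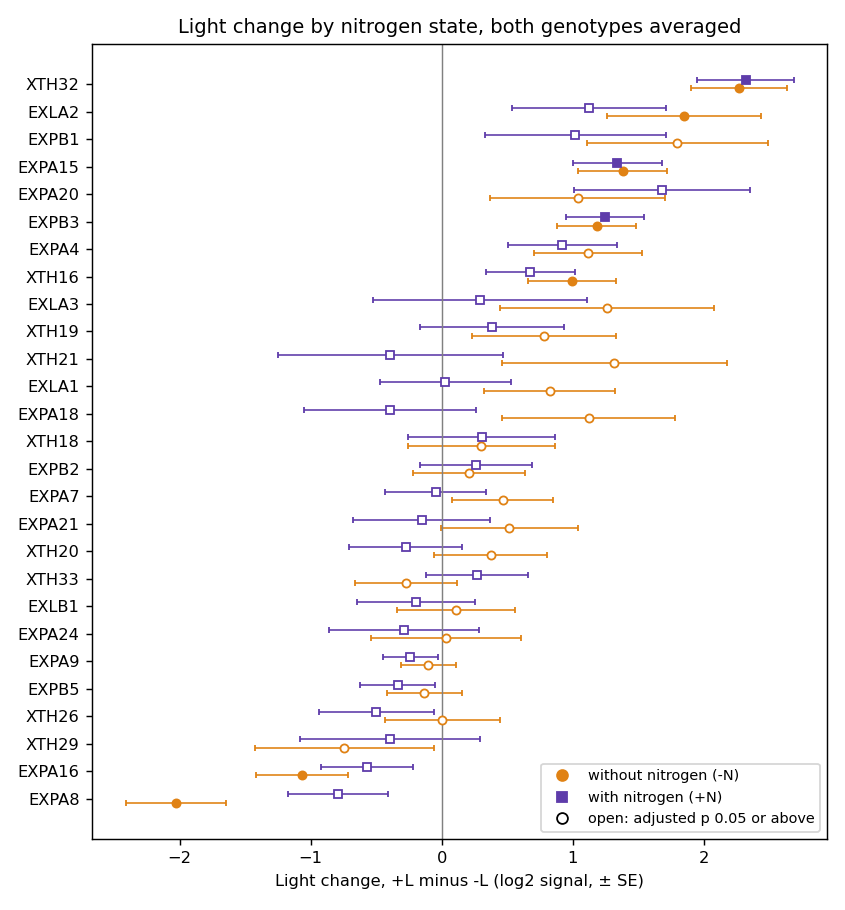
Light change of each member without nitrogen (circles) and with nitrogen (squares), both genotypes averaged, in log2 signal with the standard error; filled points have an adjusted p under 0.05. XTH32, EXPA15 and EXPB3 are filled in both states, and EXPA8 lies at -2.03 without nitrogen and -0.79 with it.

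Nitrogen itself moved no member past the threshold. None of the 27 was called for the N term, where 0.954% of all probe sets were, and none had an unadjusted p under 0.05 in this fit, which takes no account of the replicate number. A count of 0 among 27 is near this background. The members' changes ran from -0.63 (EXPA20) to 0.50 (EXLA1), with a median of -0.06 beside -0.04 over all probe sets, and 10 of 27 were above 0. Separately, 0 members were called for nitrogen in the dark (0.0703% of all probe sets) and 0 in light (0.655%). EXPA8 gave -0.83 in the dark (SE 0.38, adjusted p = 0.817 by limma) and 0.41 in light.

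EXPA9, an alpha-expansin, had the smallest p for nitrogen in the fit without the replicate number. With the number in the model it was EXLA1, at 0.50 (SE 0.17, unadjusted p = 0.00797, adjusted p = 0.136 by limma), which was not called. EXLA1 was higher with nitrogen in 9 of 12 pairs. EXPA9 read 354, 184 and 229.8 in WT-sib -N-L and 302, 271 and 232 in WT-sib +N-L. In light EXPA9 read 411, 226 and 159 in WT-sib -N+L and 246, 206 and 251 in WT-sib +N+L. The WT-sib ranges with and without nitrogen overlapped in both light states. In bzip1-1 EXPA9 read 356, 217 and 282 in -N-L and 247, 204 and 169 in +N-L. In bzip1-1 light arrays it read 276, 197 and 264 in -N+L and 187, 153 and 164 in +N+L. EXPA9 gave -0.24 (SE 0.15, adjusted p = 0.705 by limma) for nitrogen, and was higher with nitrogen in 3 of 12 pairs. Its N*G value, the nitrogen response in bzip1-1 minus that in WT-sib, was -0.52 (SE 0.30, adjusted p = 1) and also had the smallest p of that term in this fit.

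The genotypes did not differ past the threshold in any member. None of the 27 was called for the G term, where 0.00879% of all probe sets were. None had an unadjusted p under 0.05 in this fit, which takes no account of the replicate number. Changes of bzip1-1 against WT-sib ran from -0.40 (EXPA18) to 0.34 (EXLA1), with a median of -0.04 beside 0.01 over all probe sets. EXPA16 had the smallest p, at -0.32 (SE 0.25, 95% interval -0.83 to 0.20, adjusted p = 1 by limma), and its change without the -N+L arrays of number 1 was -0.19. With the replicate number in the model the EXPA16 change was -0.32 with an SE of 0.13 (unadjusted p = 0.027, adjusted p = 0.777 by limma), again not called. Taken by light state, 0 members were called in the dark (0.0044% of all probe sets) and 0 in light (0%).

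The light response was read in each genotype too. In WT-sib XTH32, EXPA15 and EXPB3 rose and EXPA8 fell, where 7.51% of all probe sets were called higher and 6.74% lower. In bzip1-1 the same 4 genes were called in the same directions, where 6.97% were called higher and 6.63% lower. XTH32 rose by 2.20 in WT-sib and 2.38 in bzip1-1, EXPA15 by 1.37 and 1.34, and EXPB3 by 1.05 and 1.38, while EXPA8 fell by 1.44 and 1.39. Without the pair of -N+L arrays of number 1 these 4 calls held and XTH16 was added in both genotypes, at 1.15 in WT-sib (adjusted p = 0.00873) and 0.97 in bzip1-1 (adjusted p = 0.0285). In that fit 7.81% of all probe sets were higher and 6.68% lower in WT-sib, and 6.38% were higher and 6.16% lower in bzip1-1.

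No member was called for L*G, N*G or N*L*G, each with 0% of all probe sets called, and the numbers of members with an unadjusted p under 0.05 in this fit were 0, 0 and 1. In this fit the smallest p for L*G, the light response in bzip1-1 minus that in WT-sib, belonged to the dim EXPA21. EXPA21 read 5.18, 6.72 and 3.37 in WT-sib -N-L and 3.64, 3.68 and 14.4 in WT-sib +N-L. In light EXPA21 read 10.9, 3.88 and 16.9 in WT-sib -N+L and 14.5, 2.70 and 12.9 in WT-sib +N+L. No WT-sib array exceeded 16.9. EXPA21 read 9.51, 6.24 and 5.04 in bzip1-1 -N-L and 5.88, 12.2 and 11.6 in bzip1-1 +N-L. In bzip1-1 light arrays it read 6.11, 11.0 and 6.19 in -N+L and 8.36, 5.56 and 3.60 in +N+L. The L*G value of EXPA21 was -0.97 (SE 0.74, adjusted p = 1 by limma), from a probe set at the 3.5th percentile of mean log2 signal.

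The dim beta-expansin EXPB2 had the smallest p for N*L*G, the N*G value in light minus that in the dark, in the fit without the replicate number. With the number in the model it was EXLA1, at -1.79 (SE 0.67, unadjusted p = 0.0147 by limma), which was not called. EXPB2 read 28.2, 79.2 and 92.0 in WT-sib -N-L and 70.7, 128 and 96.2 in WT-sib +N-L. In light EXPB2 read 123, 99.4 and 49.1 in WT-sib -N+L and 39.1, 93.3 and 54.0 in WT-sib +N+L. In WT-sib the ranges with and without nitrogen overlapped in both light states. EXPB2 read 91.6, 75.9 and 86.3 in bzip1-1 -N-L and 93.6, 12.2 and 43.0 in bzip1-1 +N-L. In bzip1-1 light arrays it read 95.5, 118 and 42.9 in -N+L and 91.2, 90.2 and 77.9 in +N+L. The N*L*G value of EXPB2 was 2.57 (SE 1.21, adjusted p = 1 by limma), and a single array, the bzip1-1 +N-L array of number 2 at 12.2, was far below the rest.

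**Figure D4:**
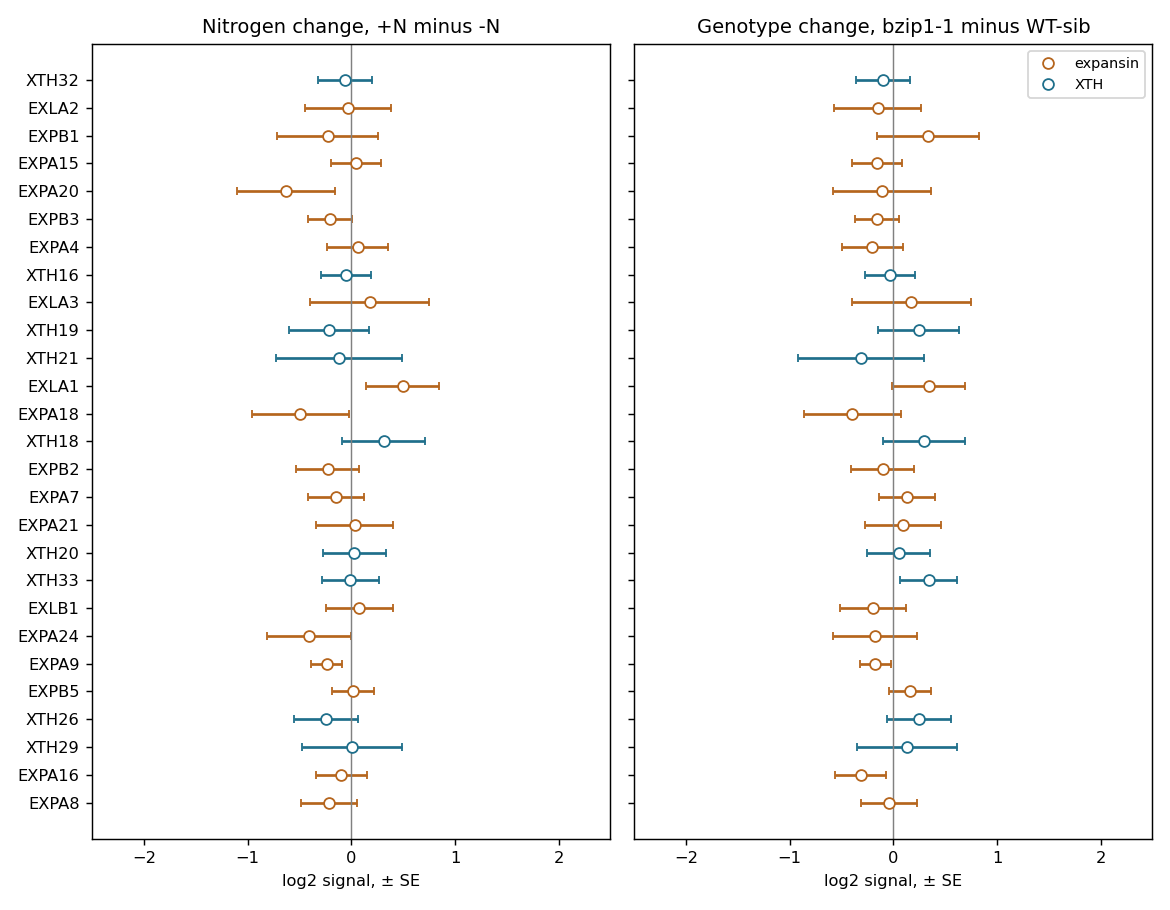
Nitrogen change (left) and genotype change (right) of each member in log2 signal with the standard error; the genes follow the order of their light change. All 27 points are open, since none has an adjusted p under 0.05, and they lie between -0.63 and 0.50 for nitrogen and between -0.40 and 0.34 for genotype.

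The members varied with the replicate number of the labels. For 17 of 27 members the number 1 array was the highest of its group in at least 5 of 8 groups, against 17.4% of all probe sets. Number 2 arrays were so for 1 member (13.3% of all probe sets) and number 3 arrays for 2 members, XTH16 and EXPB5 (27%). XTH19 was highest on the number 1 array in 8 of 8 groups. Within each number the 10 called members had the sign of their overall light change, in 10 of 10 for numbers 1, 2 and 3. They were called on these same arrays, so this agreement was partly fixed in advance. Of all 27 members 19, 16 and 14 had a light change above 0 within numbers 1, 2 and 3. Over all 27 members the median light change was 0.35, 0.62 and 0.19 within numbers 1, 2 and 3, beside -0.01, 0.02 and 0.02 over all probe sets. The genotype median was -0.19, 0.21 and -0.14 in the 3 numbers.

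**Figure D5:**
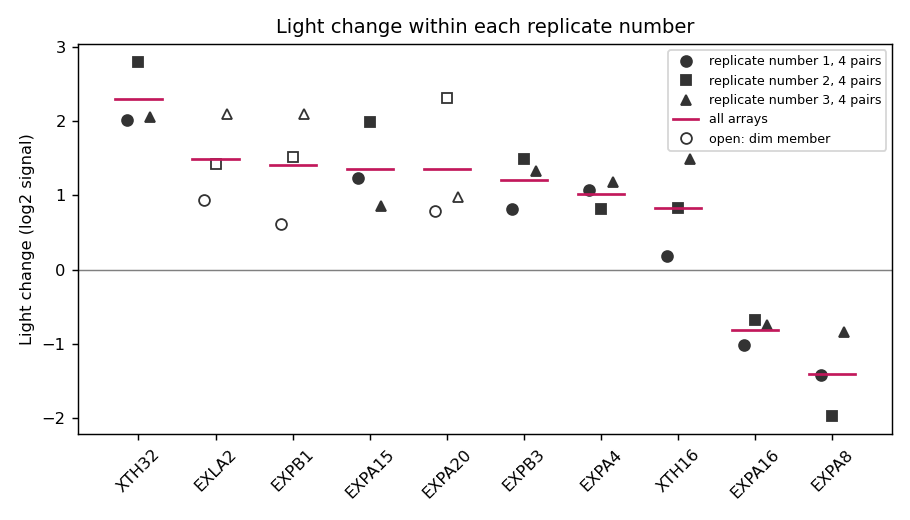
Light change in log2 signal of the 10 members called for light, computed from the 4 pairs of arrays of each replicate number (marker shapes) and from all arrays (lines); open markers are dim members. All 3 points of each gene lie on the same side of 0, for genes that were called on these same arrays.

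Other genes of wall synthesis were compared with the members where the array annotation, or for XYL1 the study, named them. Of 11 genes of xyloglucan synthesis and trimming 2 were measured, and 1 rose in light, where 13.2% of all probe sets did. These are too few genes to compare shares. CSLC4, which makes the xyloglucan backbone, changed by 0.09 (SE 0.14, adjusted p = 0.718). XYL1, an alpha-xylosidase that trims xyloglucan, rose by 0.42 (SE 0.14, adjusted p = 0.031); its name was taken from the study's table of regulated genes, so it is not independent of these data. Of 10 cellulose genes only COB, which orients cellulose deposition, was measured, and it rose by 0.41 (SE 0.11, adjusted p = 0.00929). None of the 3 was dim, and 36.6% of all brighter probe sets were called for light in either direction. None of the 3 was called for nitrogen or genotype. Of 8 proton pump, 13 elongation and brassinosteroid and 3 touch genes none had a named probe set.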

How the data were processed

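RNA from whole seedlings was labelled and hybridised by the authors to ATH1 arrays, and the deposited values are linear (not log) MAS 5.0 intensity for every probe set, with a trimmed mean of about 500 on each array after 2% was cut from either end. Groups and replicate numbers came from the labels. Log2 intensities of 22746 probe sets (64 controls removed) were fitted with limma 3.58.1 (lmFit, eBayes with trend) in R 4.3.3 to 8 group means, without an offset, with two-sided tests and Benjamini-Hochberg adjustment. No probe set was left out for low signal, and with 3 arrays per group precision is limited. On simulated data, 65 of 100 probe sets changed by 1 on the log2 scale and 89 of 100 changed by 2 were called for light, with 3 false calls. The simulation covered 22746 probe sets rather than the members, of which 15 are dim, so these rates are not the members' own. Signals on every array are given for members called for nitrogen, genotype or an interaction, for up to 10 brighter members called in each light direction, and for the smallest p in each term without a call. Members and lists were chosen with earlier results of these data known. The study's methods used 3-way analysis of variance, which was tried as an alternative beside other normalizations, thresholds, a replicate block and leaving out arrays. Figures used matplotlib 3.10.9.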

Additional observations from a re-analysis of the deposited data

How the results depend on the processing

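With 3 arrays per group, standard errors of the members' main changes were 0.15 to 0.61 on the log2 scale, and the 15 dim members lay low in the range of signals. Numbers of members higher in light fell from 8 to 5 when dim probe sets were left out, since 3 of the 8 are dim (20.8% of the probe sets then tested were higher), and to 5 without both -N+L arrays of number 1. They were 6 to 8 when each of the 24 arrays was left out, with 2 lower in light each time. EXPA20 lost its call in 16 and EXPB1 in 13 of these 24 fits, and the other 8 called members kept theirs. Without both +N-L arrays of number 2, an alternative chosen after seeing the data, 7 were higher and 1 lower. In bzip1-1 alone, fitted on its 12 arrays, 5 members rose instead of 3, while 6.92% of all probe sets rose instead of 6.97%; the cause was not tested. With the replicate block, 8 members were higher and 2 lower in light, the same genes, and 0 were called for every other term. The smallest adjusted p with the block was 0.136 for nitrogen (EXLA1), 0.777 for genotype (EXPA16) and 0.39 for N*L (EXPA8), while probe sets called over the whole array rose from 5660 to 7238 for light, from 217 to 652 for nitrogen, from 2 to 7 for genotype and from 9 to 38 for N*L. The block raised the members with an unadjusted p under 0.05 from 0 to 2 for nitrogen (EXLA1 and EXPA9), from 0 to 1 for genotype, from 1 to 3 for N*L and from 0 to 3 for N*G, as it raised the share of all probe sets from 9.42% to 14.3%, from 3.3% to 6.27%, from 4.33% to 7.86% and from 2.69% to 5.89%. Deviations from group means correlated above 0.1 in 65 of 84 pairs of arrays with one number (median 0.245; 76 of 84 over brighter probe sets) and in 3 of 168 pairs with different numbers (median -0.0775). On average 23 of 24 arrays correlated best with those of their own number. The labels do not say what a number shares and not every pair passed 0.1, so the block stayed an alternative, although arrays of one number mostly deviated together. The members' median standard error for a main change was 0.31 without the block and 0.24 with it. Errors and intervals in the sections above are those without it, so part of their width is variation between numbers. Plain analysis of variance called 9 members on linear signal (EXPA4 lost, adjusted p = 0.053) and 8 on log2 signal (EXPA20 and EXPB1 lost). Without the trend 8 were called, and quantile normalization, a common median, an offset of 32 and the unadjusted threshold of 0.01 each called the same 10. No direction turned, and no member was called for another term under any of these settings.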
